A study of Mus musculus with 6 samples.

Results

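The genes described here are 10 feedback inhibitors of MAP kinase signaling in mouse kidney cells given a saturated fatty acid: the MAP kinase phosphatase genes Dusp1, Dusp4, Dusp5, Dusp6, Dusp8, Dusp10 and Dusp16, the Sprouty genes Spry2 and Spry4, and the related Spred1. They were chosen by gene symbol from a table of 24421 genes, with earlier results of these data known. All 10 were expressed highly enough to be among the 11671 genes tested. The cells were immortalized wild-type mouse proximal tubular epithelial cells (PTECs), a cultured model of the tubule segment that takes up filtered protein and the fatty acids bound to it. Both groups received bovine serum albumin (BSA), and the treated group received BSA carrying palmitic acid (PA). RNA was collected after 6 hours, with 3 libraries per group, and nothing in the labels says that these were separate cultures, so the p-values reflect no more than how these libraries varied. Age does not apply, and the cells of both groups were wild type, with no gene edit stated. The sources used here do not say how the cells were immortalized or whether they are a single clone.

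Growth factor receptors activate RAS, which starts a chain of kinases that ends in the MAP kinase ERK. The related MAP kinases JNK and p38 respond mainly to stress and inflammatory signals. Dual-specificity phosphatases remove both phosphates from the activation loop of a MAP kinase, and Sprouty and Spred proteins act further upstream, between the receptor and RAF. Many of these genes are transcribed in response to the very pathway they inhibit, so that their mRNA follows recent MAP kinase activity in many cell types, although other signals also induce them.

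Of the 10 genes, 7 were higher in PA-treated PTECs, 0 were lower and 3 did not pass the test. The test was limma on log2(RPKM + 0.1), where RPKM is the read number scaled to gene length and library size, and a gene was called when its p, adjusted by the Benjamini-Hochberg method over all 11671 genes, was under 0.05. Over all genes tested, 11.2% were called higher and 9.52% lower. The 5 members called with a log2 fold change over 0.4, the further threshold used in the study, were Dusp1, Dusp4, Dusp10, Spry2 and Spry4, against 4.22% of all genes, and 0 members were lower past -0.4, against 2.06%. The median log2 fold change was 0.40 over the 10 genes and -0.04 over all genes tested. These contrasts describe a set chosen with earlier results known and do not test it. No member had a negative fold change, so 0 were lower at an unadjusted p under 0.05 also, against 2287 of all 11671 genes. At that threshold 8 members and 1889 of all genes were higher. Limma voom on whole reads called 7 members higher and 0 lower, and 2902 of all genes, 51.2% of them higher.

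**Figure D1:**
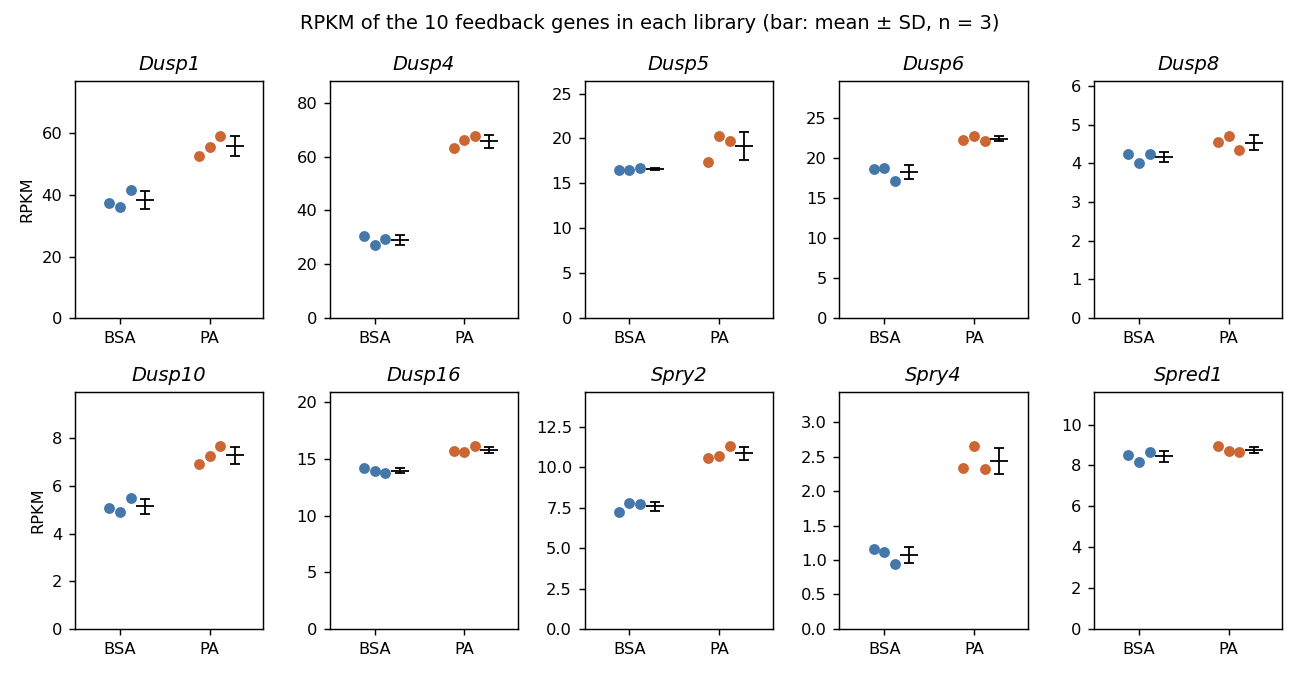
RPKM of each of the 10 genes in the 3 BSA (blue) and 3 PA (orange) libraries, each panel on its own axis from 0, with the mean ± SD beside the points. The PA points lie above the BSA points in every panel, far apart for Dusp4 (27.0 to 30.6 against 63.1 to 67.7) and almost touching for Spred1 (8.16 to 8.65 against 8.66 to 8.93).

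The 3 PA libraries lay above the 3 BSA libraries in all 10 genes, an arrangement found in 18.2% of all genes tested. With 3 libraries against 3, an exact permutation test on a single gene cannot give a p below 0.1, and each of the 10 genes had that value (two-sided). The calls below therefore rest on the variance that limma shares across genes.

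The promoter sequences of the members whose window held a full cyclic AMP response element (CRE) or a CArG box are shown first, since transcription through such elements is one known way in which these genes answer to signaling. RefSeq promoter windows (GRCm38.p6, 250 bases before to 50 after the start) were matched for 8 of the 10 members, and Dusp4 and Spry4 were not matched. The stretches run from 200 to 51 bases before the RefSeq start, 5′ to 3′ on the gene's strand, and capitals mark every match to the motifs searched. For Dusp1 (chr17:26508523-26508672, minus strand) these are TGACG, TGACGTCA and CACGTG.
Dusp1: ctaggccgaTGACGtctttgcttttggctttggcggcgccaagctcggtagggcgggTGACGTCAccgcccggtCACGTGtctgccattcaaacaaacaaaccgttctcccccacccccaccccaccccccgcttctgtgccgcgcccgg
For Dusp5 (chr19:53528945-53529094, plus strand) they are 2 adjoining CArG boxes, the sequence bound by serum response factor, and the letters TGACG read on the other strand.
Dusp5: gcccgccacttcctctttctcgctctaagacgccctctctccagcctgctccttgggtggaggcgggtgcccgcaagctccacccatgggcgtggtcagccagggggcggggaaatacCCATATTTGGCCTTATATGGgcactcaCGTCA
For Dusp8 (chr7:142095335-142095484, minus strand) they are 2 copies of TGACGTCA.
Dusp8: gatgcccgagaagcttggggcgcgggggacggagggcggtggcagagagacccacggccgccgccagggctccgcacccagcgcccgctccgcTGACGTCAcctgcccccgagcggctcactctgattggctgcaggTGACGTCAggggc

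The palindrome TGACGTCA, the CRE bound by CREB and ATF proteins, was present in the windows of Dusp1 and Dusp8 and in 1.79% of all 32851 promoter windows, or 3.21% of those of tested genes. Its first base lay 143 bases before the start in Dusp1, and 107 and 63 bases before it in Dusp8. The shorter site TGACG, which each full site also contains, was found in 4 of the 8 windows (Dusp1, Dusp5, Dusp8 and Dusp16) and in 32% of those of tested genes. The CArG box was found in Dusp5 alone among the members and in 1.25% of windows of tested genes, its copies starting 82 and 72 bases before the start. The E-box CACGTG occurred in Dusp1 and in 10.2% of windows of tested genes. The letters of AP-1 (TGACTCA), ETS (CCGGAAGT), the ATF4 composite element (TGATGNAAN), the TATA box (TATAAA) and the CLEAR element were in none of the 8 windows, on either strand. Of the 3 genes whose stretches are printed, Dusp1 was called higher while Dusp5 and Dusp8 were not called. Dusp16, whose window held only the shorter site, was called higher.

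Dusp4, the nuclear phosphatase MKP-2, and Spry4 had the largest changes of the 10 genes, and their order depended on the added constant and scaling. Its RPKM was 30.6, 27.0 and 29.4 in the BSA libraries and 63.1, 66.1 and 67.7 in the PA libraries. Every PA library held more than 2 times the level of any BSA library. The mean went from 29.0 ± 1.83 to 65.7 ± 2.33 (SD, n = 3), a log2 fold change of 1.18 (SE 0.05) or 2.26-fold, with an adjusted p of 1.2e-05 from limma. Only 0.531% of tested genes had a larger log2 fold change. Its values rest on 1260 to 3197 reads per library, and across 17 alternative analyses the log2 fold change stayed between 1.13 and 1.22. The gene lies on chromosome 8 from 34807610 to 34819894 (GRCm38).

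Dusp1, or MKP-1, is an immediate early gene whose nuclear product acts on p38 and JNK and also on ERK. Its RPKM was 37.4, 36.1 and 41.6 with BSA and 52.7, 55.6 and 59.2 with PA. The gap between the groups was wider than the range of either. The mean rose from 38.4 ± 2.87 to 55.8 ± 3.24 (SD, n = 3), a log2 fold change of 0.54 (SE 0.06) or 1.46-fold (adjusted p = 1.0e-03, limma). Dusp1 lies on chromosome 17 from 26505591 to 26508472.

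Dusp5, a nuclear phosphatase specific for ERK, behaved differently in 1 library. Its RPKM was 16.5, 16.5 and 16.7 with BSA and 17.4, 20.3 and 19.7 with PA. The BSA libraries were nearly equal, and PA replicate 1 lay closer to them than to the other PA libraries. The log2 fold change of 0.20 (SE 0.06) missed the threshold (adjusted p = 0.0520, limma). Without PA replicate 1 it was 0.27 with an adjusted p of 0.0102. Dusp5 was called in 4 of 17 alternatives, another being a minimum mean RPKM of 1 (adjusted p = 0.0477). Leaving out any library other than PA replicate 1 gave no call (adjusted p 0.0618 to 0.168), nor did limma voom (0.0710). The RPKM of Dusp5 was computed over 1155 bases, against 2473 bases of exons in GENCODE, and the start of the gene overlaps the antisense gene AC137853.2.

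Dusp6, or MKP-3, is the cytoplasmic phosphatase that binds and inactivates ERK. Its RPKM was 18.7, 18.8 and 17.2 with BSA and 22.3, 22.8 and 22.2 with PA. The PA libraries were tightly grouped above the BSA libraries. The mean rose from 18.2 ± 0.856 to 22.5 ± 0.331 (SD, n = 3), a log2 fold change of 0.30 (SE 0.04) or 1.23-fold (adjusted p = 0.0033, limma). This is below the study's threshold of 0.4, and 8.33% of tested genes had a larger log2 fold change.

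Dusp10, Dusp16 and Dusp8 encode phosphatases that prefer JNK and p38, of which Dusp10 and Dusp16 were called higher and Dusp8 was not called, and differences between these genes were not tested. Dusp10, or MKP-5, had an RPKM of 5.06, 4.89 and 5.49 with BSA and 6.94, 7.27 and 7.66 with PA. The lowest PA library of Dusp10 stood well above the highest BSA library. Its mean rose from 5.15 ± 0.306 to 7.29 ± 0.361 (SD, n = 3), a log2 fold change of 0.49 (SE 0.07) or 1.41-fold (adjusted p = 0.0021, limma).

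Dusp16, or MKP-7, had an RPKM of 14.2, 13.9 and 13.8 with BSA and 15.7, 15.6 and 16.1 with PA. The difference was small but larger than the spread within either group, with means of 14.0 ± 0.185 and 15.8 ± 0.278 (SD, n = 3). The log2 fold change was 0.17 (SE 0.04), or 1.13-fold, and passed with an adjusted p of 0.0174 (limma). The call was lost without BSA replicate 2 (adjusted p = 0.0667), without PA replicate 2 (0.0596) and without PA replicate 3 (0.0729). Dusp8, a JNK-directed phosphatase, had an RPKM of 4.23, 4.0 and 4.23 with BSA and 4.56, 4.71 and 4.33 with PA. These groups nearly met, and the log2 fold change of 0.12 (SE 0.07) did not pass (adjusted p = 0.214, limma). Dusp8, Dusp10 and Dusp16 each overlap a gene on the opposite strand in the annotation (Gm32786, 1700056E22Rik and Gm36328), as do Spry4 (Gm27369 and Gm27804) and the longest GENCODE model of Dusp1 (Ergic1 and Gm8225). The libraries were stranded, but the sources used here do not give the strand setting of the read counting, so reads of such partners may not be told apart. The longest model of Dusp1 also overlaps AC122252.4 and AC122252.1 on its own strand, beyond its RefSeq span. No strand setting separates reads of those genes.

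Spry4, a Sprouty protein that restrains RAS and RAF activation, had the lowest level of the 10 genes and a change close to that of Dusp4. Its RPKM was 1.16, 1.11 and 0.937 with BSA and 2.34, 2.65 and 2.32 with PA. The lowest PA library was about 2 times the highest BSA library. The mean rose from 1.07 ± 0.119 to 2.44 ± 0.184 (SD, n = 3), a log2 fold change of 1.12 (SE 0.13) or 2.17-fold (adjusted p = 8.5e-04, limma). These values rest on 76 to 110 reads per library with BSA and 207 to 217 with PA. At this level the added constant matters, and with 1 in place of 0.1 the log2 fold change of Spry4 was 0.73, still called. The ratio of the group means was 2.28 for Spry4 and 2.27 for Dusp4. Their log2 fold changes were both 1.18 with a constant of 0.01, and that of Spry4 was the larger under quantile normalization (1.19 against 1.17) and without BSA replicate 2 (1.15 against 1.13).

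Spry2, which is induced by and acts against receptor tyrosine kinase signaling, had an RPKM of 7.27, 7.78 and 7.72 with BSA and 10.6, 10.7 and 11.3 with PA. The groups were far apart relative to their spread. The mean rose from 7.59 ± 0.276 to 10.9 ± 0.36 (SD, n = 3), a log2 fold change of 0.51 (SE 0.05) or 1.42-fold (adjusted p = 4.8e-04, limma). Spred1, which brings the RAS GTPase-activating protein neurofibromin to the membrane, had an RPKM of 8.53, 8.16 and 8.65 with BSA and 8.93, 8.70 and 8.66 with PA. BSA replicate 3 and PA replicate 3 were practically equal. The log2 fold change of Spred1 was 0.05 (SE 0.05), with an adjusted p of 0.462 (limma), and it was not called in any of the 17 alternatives.

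Since RPKM is per length, levels could be set side by side, as a description and with no test between genes. With BSA the order from high to low was Dusp1, Dusp4, Dusp6, Dusp5, Dusp16, Spred1, Spry2, Dusp10, Dusp8 and Spry4. With PA, Dusp4 stood above Dusp1 and Spry2 above Spred1, and the other positions were the same. No neighbors in either order had overlapping library ranges, although each level depends on the gene length used, which for Dusp5, Dusp1 (1942 against 3311 bases) and Dusp16 (5112 against 7798 bases) was well below the GENCODE exon total. For Dusp4 the lengths were 2427 and 2740 bases. The order of the genes, and the exchange of Dusp1 and Dusp4 with PA, therefore also depend on these lengths.

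Among the 7 phosphatase members, mRNA shares shifted toward Dusp4. The sum leaves out Dusp2, Dusp7 and Dusp9, of which Dusp9 had 23.6 RPKM with BSA and 26 with PA. The summed RPKM of the 7 DUSP genes was 126.7, 121.2 and 128.5 in the BSA libraries and 182.7, 192.4 and 196.9 in the PA libraries. Dusp4 made up 24.2%, 22.3% and 22.9% of this sum with BSA and 34.6%, 34.4% and 34.4% with PA. The Dusp4 share was thus higher in each PA library than in any BSA library. The share of Dusp1 was 29.5%, 29.8% and 32.4% with BSA and 28.8%, 28.9% and 30% with PA, which overlapped. The ratio of Dusp4 to Dusp1 was 0.818, 0.748 and 0.706 with BSA and 1.20, 1.19 and 1.15 with PA. The ratio of Spry4 to Spry2 likewise did not overlap, at 0.121 to 0.160 with BSA and 0.206 to 0.247 with PA. The size of these ratios and shares depends on the gene lengths used, and they were not tested. Whether the ratio of Dusp4 to Dusp1 lies below or above 1 in a group depends on these lengths too.

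**Figure D2:**
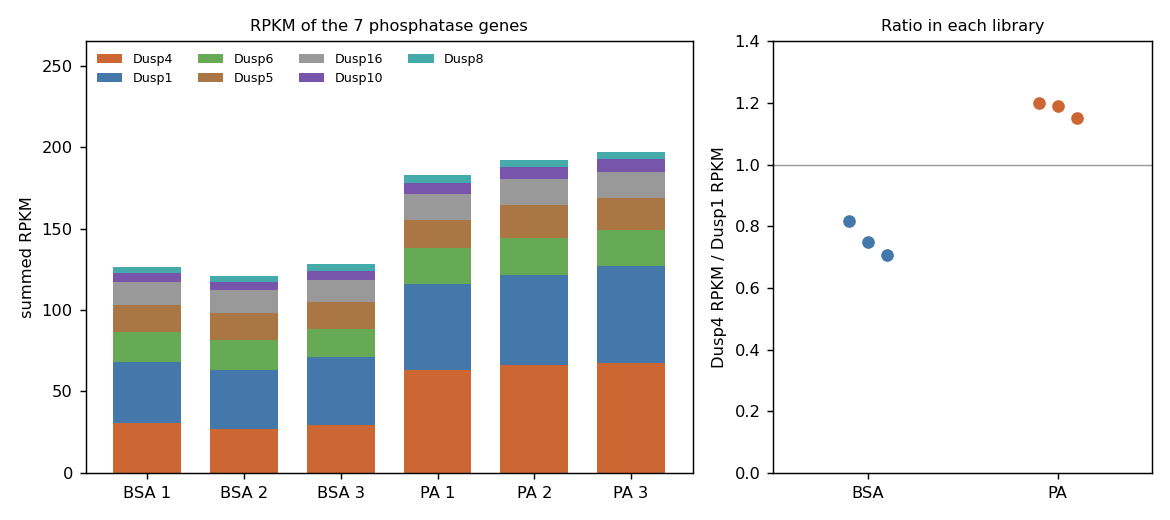
Left, stacked RPKM of the 7 DUSP genes in each library, with sums of 121.2 to 128.5 for BSA and 182.7 to 196.9 for PA. Right, the ratio of Dusp4 to Dusp1 RPKM in each library, below 1 in the 3 BSA libraries (0.706 to 0.818) and above 1 in the 3 PA libraries (1.15 to 1.20). The position relative to 1 depends on the gene lengths used.

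Relatives of the 10 genes did not all follow them. Of the remaining MAP kinase phosphatases, Dusp2, Dusp7 and Dusp9, 0 of 3 were called by limma, 2 of 3 were higher at an unadjusted p under 0.05, and limma voom on whole reads called 1. For comparison, 11.2% of all genes were called higher by limma, and 1889 of 11671 were higher at that unadjusted threshold. Dusp9, an ERK phosphatase, was the most abundant of them at 23.6 ± 0.75 RPKM with BSA and 26 ± 1.26 with PA (SD, n = 3), with a log2 fold change of 0.14 and an adjusted p of 0.0748. Dusp7, a cytoplasmic ERK phosphatase, had a log2 fold change of 0.33 (adjusted p = 0.0567), and without BSA replicate 3 it was 0.20 and called (0.0274), as it was under median-of-ratios scaling (0.0318), quantile normalization (0.0339) and limma voom (0.0185). Dusp7 was also called with the GC trend removed (0.0125). Dusp9 was called without PA replicate 1 (0.0455) and with the GC trend removed and the replicate block added (0.0275). Under that last setting 2 of 3 were called higher. Among Sprouty and Spred genes outside the 10, 1 of 3 tested was called, Spred2, which rose from 13.8 ± 0.828 to 18 ± 0.59 RPKM (SD, n = 3; log2 fold change 0.38, adjusted p = 0.0026, limma). A second gene of this list was also called without BSA replicate 1, which gave 2 of 3. The count was 2 as well with median-of-ratios scaling, and with the GC trend removed and the replicate block added. Spred2 rose while its paralog Spred1 was not called. The difference between these paralogs was not tested.

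Atypical DUSP genes lack the MAP kinase docking domain of the classical phosphatases, and many act on other substrates. Of 13, 10 were tested, of which 2 were higher and 1 was lower, against 11.2% and 9.52% of all genes. Their median log2 fold change was -0.04, the same as over all genes. At an unadjusted p under 0.05, 2 were higher and 2 lower (all genes: 1889 and 2287 of 11671), as limma voom also called them. With quantile normalization, the replicate block or the GC trend removed, 2 were called lower. Dusp3, encoding the small phosphatase VHR, rose from 33.3 ± 0.989 to 48.0 ± 1.04 RPKM (SD, n = 3; log2 fold change 0.53, adjusted p = 7.3e-05, limma). Dusp18 rose by a log2 fold change of 0.24 (adjusted p = 0.0041). Dusp14 fell by 0.31 on the log2 scale (adjusted p = 0.0048). The members and the atypical genes thus had different medians, with no test between them, and both lists were chosen with earlier results known.

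**Figure D3:**
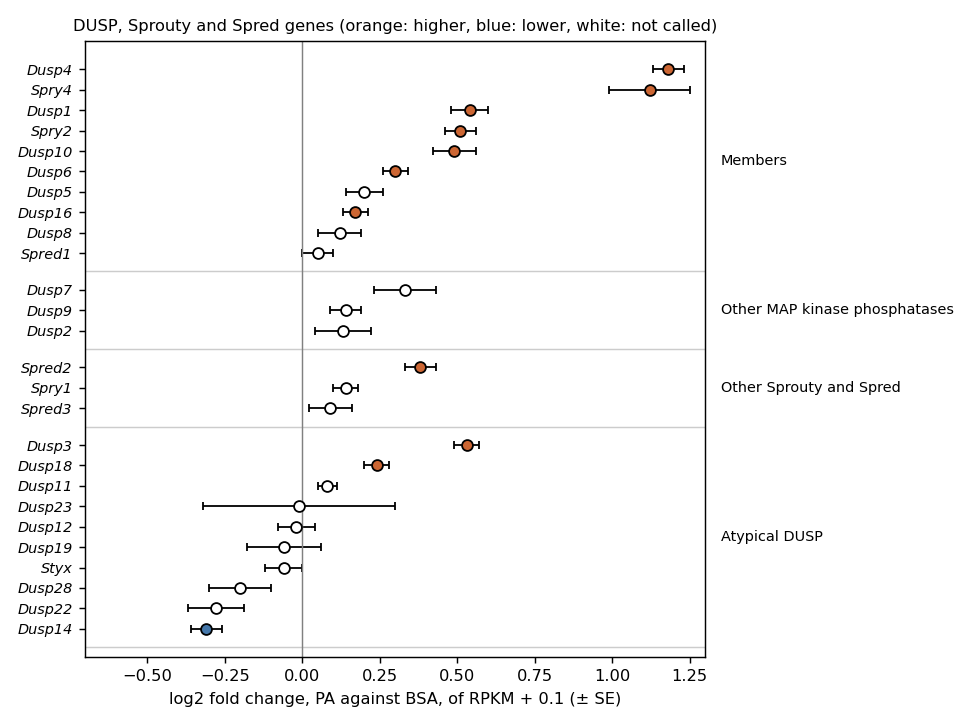
Log2 fold change of PA against BSA with its SE for the 10 members and for related DUSP, Sprouty and Spred genes that were tested (orange, called higher; blue, called lower; white, not called). Members range from 0.05 (Spred1) to 1.18 (Dusp4), and the atypical DUSP genes from -0.31 (Dusp14) to 0.53 (Dusp3).

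Genes that ERK signaling is known to induce were the list with the most calls. Of 20, 17 were tested, of which 11 were higher and 0 lower by limma, against 11.2% and 9.52% of all genes. The median log2 fold change was 0.46 against -0.04 over all genes. At an unadjusted p under 0.05, 13 were higher and 1 lower (all genes: 1889 and 2287 of 11671). Limma voom on whole reads gave the same counts for the list. The count of genes higher was 9 to 13 over the 17 alternatives. The list was chosen with earlier results of these data known.

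Hmga2, an architectural chromatin protein, rose from 49.9 ± 2.27 to 108.8 ± 4.8 RPKM (SD, n = 3; log2 fold change 1.12, adjusted p = 9.0e-06, limma). Fosb, an AP-1 subunit of low abundance, rose from 0.593 ± 0.103 to 1.31 ± 0.11 RPKM (log2 fold change 1.03, adjusted p = 0.0062). Myc rose from 66.6 ± 2.14 to 107.8 ± 4.12 RPKM (log2 fold change 0.69, adjusted p = 2.8e-05). Not every gene of the list followed. Egr1, an immediate early zinc finger factor named here after its values were seen, went the other way, with 8.45 ± 1.52 RPKM with BSA and 6.44 ± 0.237 with PA (log2 fold change -0.37, adjusted p = 0.0568), and it was called lower in 5 of 17 alternatives, one of them the fit without BSA replicate 3 (adjusted p = 0.0138).

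Of the 19 genes that carry the signal from receptor adaptors through RAS and RAF to ERK, 2 were higher and 0 lower, a share higher close to the 11.2% of all genes, with a median log2 fold change of 0.01. At an unadjusted p under 0.05, 3 were higher and 1 lower (all genes: 1889 and 2287 of 11671), and limma voom called 2 higher and 1 lower. Sos2, a RAS exchange factor, had a log2 fold change of 0.21 (adjusted p = 0.0385), and Map2k1, the kinase that phosphorylates ERK, one of 0.18 (adjusted p = 0.0302). These calls were not firm. Sos2 lost its call with no filter on low values (adjusted p = 0.0708), quantile normalization (0.0515), the replicate block (0.0535) and without any 1 of BSA replicates 1 and 2 and PA replicates 1, 2 and 3 (0.0520 to 0.133). Map2k1 lost its call with no variance trend (0.0643) and without any 1 of BSA replicate 2 and PA replicates 1, 2 and 3 (0.0588 to 0.108). Without BSA replicate 2 or any 1 PA library, 0 of the 19 genes were called higher, and 1 was called lower without PA replicate 1.

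Upstream of RAS, calls went in both directions. Of 10 growth factor receptors tested, 1 was higher and 3 were lower (all genes: 11.2% and 9.52%), with a median log2 fold change of -0.14. Fgfr1 rose from 21.5 ± 0.447 to 34.6 ± 0.542 RPKM (SD, n = 3; log2 fold change 0.68, adjusted p = 1.9e-05, limma), whereas Fgfr2 fell from 5.38 ± 0.826 to 3.35 ± 0.203 (log2 fold change -0.66, adjusted p = 0.0065). Met, the receptor for hepatocyte growth factor, had a log2 fold change of -0.14 (adjusted p = 0.0148) and lost its call with median-of-ratios scaling (0.0548) and without BSA replicate 2, PA replicate 1 or PA replicate 3 (adjusted p 0.0524 to 0.0658). With median-of-ratios scaling 1 receptor gene was called lower in place of 3, and also without BSA replicate 2, PA replicate 1 or PA replicate 3. Limma voom called 1 higher and 4 lower, and 4 were also called lower with no variance trend. Without adjustment, 1 was higher and 5 lower at p under 0.05 (all genes: 1889 and 2287 of 11671).

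Of 7 EGF family ligands and metalloproteases tested, 2 were higher and 1 lower (all genes: 11.2% and 9.52%), with a median log2 fold change of 0.10. Nrg1, a ligand of ERBB receptors, rose from 29.8 ± 2.0 to 45.9 ± 1.57 RPKM (SD, n = 3; log2 fold change 0.62, adjusted p = 2.2e-04, limma). Areg, encoding amphiregulin, had a log2 fold change of 0.65 (adjusted p = 0.0420), and Tgfa one of -0.21 (adjusted p = 0.0313). Neither call was firm. Areg lost its call with no filter on low values (0.0888), with no variance trend (0.0660) and without BSA replicate 1 or 2 or PA replicate 2 or 3 (adjusted p 0.0703 to 0.141). Tgfa lost its call with no filter (0.0628), with median-of-ratios scaling (0.0556), with quantile normalization (0.0662) and whichever of the 6 libraries was left out (0.0581 to 0.0997).

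Other inhibitors of RAS and ERK gave 3 higher and 0 lower of 14 tested (all genes: 11.2% and 9.52%), with a median log2 fold change of 0.08. At an unadjusted p under 0.05, 5 were higher and 1 lower (all genes: 1889 and 2287 of 11671). Limma voom called 5 higher and 0 lower, and 1 was called lower without BSA replicate 3. Lrig1, a transmembrane inhibitor of EGF receptor signaling, rose from 9.43 ± 0.578 to 13.5 ± 0.718 RPKM (SD, n = 3; log2 fold change 0.52, adjusted p = 0.0012, limma). Rasa2, a RAS GTPase-activating protein, rose by a log2 fold change of 0.40 (adjusted p = 0.0041). Pea15a, which holds ERK in the cytoplasm, had one of 0.19 (adjusted p = 0.0152) and lost its call without BSA replicate 2 (0.0588) or PA replicate 3 (0.0641).

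In the JNK and p38 branch, 2 genes were higher and 2 lower of 19 tested, with a median log2 fold change of -0.03. Both shares are close to those of all genes, 11.2% higher and 9.52% lower. Without adjustment, 2 were higher and 5 lower at p under 0.05 (all genes: 1889 and 2287 of 11671), and limma voom called 2 higher and 3 lower. Gadd45a, a stress-induced activator of the upstream kinase MTK1, rose from 8.28 ± 0.243 to 15.0 ± 0.388 RPKM (SD, n = 3; log2 fold change 0.85, adjusted p = 2.0e-05, limma). Mapk11, encoding p38 beta, had a log2 fold change of -0.25 (adjusted p = 0.0124) and lost its call without PA replicate 2 (0.0574). Map2k4, a JNK kinase, had one of -0.19 (adjusted p = 0.0291) and lost its call with no variance trend (0.0566) and without any 1 of BSA replicates 1 and 2 and PA replicates 1, 2 and 3 (0.0512 to 0.0851). The number of these genes called lower was 4 without BSA replicate 3, 1 without BSA replicate 1, BSA replicate 2 or PA replicate 1, and 0 without PA replicate 2, and 1 was called higher without BSA replicate 2 or PA replicate 2.

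Of 21 MAP kinase effectors and scaffolds, 4 were higher and 1 lower (all genes: 11.2% and 9.52%), with a median log2 fold change of 0.05. Jun rose by a log2 fold change of 0.29 (adjusted p = 0.0053). Srf, encoding the serum response factor that binds CArG boxes, fell from 20.4 ± 1.00 to 15.4 ± 0.786 RPKM (SD, n = 3; log2 fold change -0.40, adjusted p = 0.0022, limma). Zfp36, which destabilizes mRNAs with AU-rich elements, had a log2 fold change of 0.48 (adjusted p = 0.0201) and lost its call without PA replicate 2 (0.0838) or PA replicate 3 (0.0770). The number of these genes called higher was 8 with median-of-ratios scaling and 2 without PA replicate 2. Limma voom called 7 higher and 1 lower. Without adjustment, 8 were higher and 1 lower at p under 0.05 (all genes: 1889 and 2287 of 11671).

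**Figure D4:**
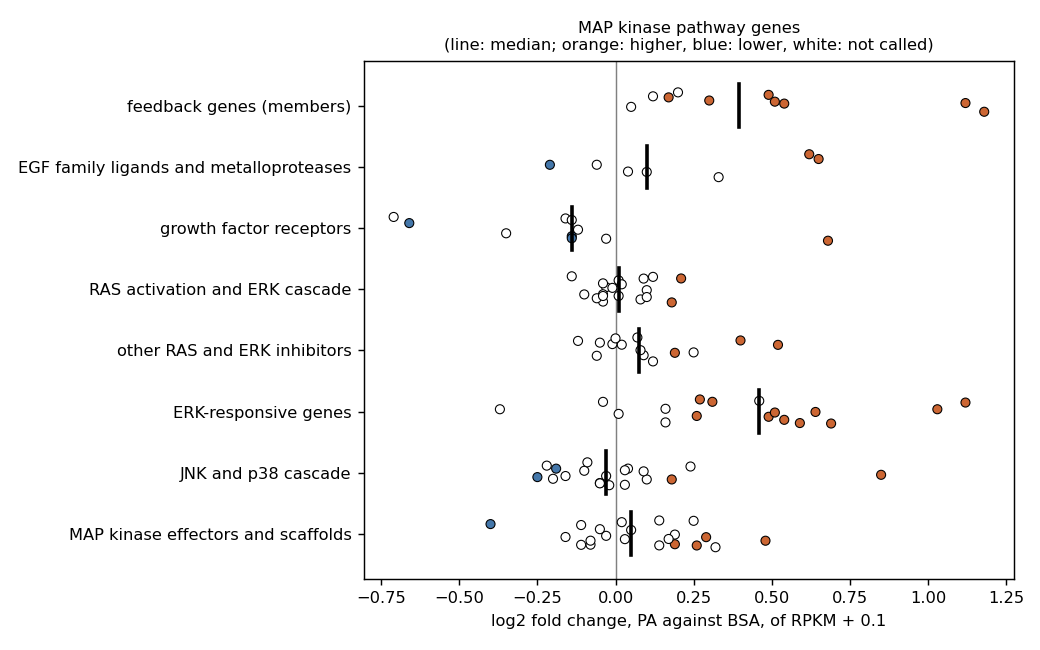
Log2 fold change of PA against BSA for the 10 members and the tested genes of 7 MAP kinase pathway lists, 1 point per gene, with the median of each list as a line (orange, called higher; blue, called lower; white, not called). The medians of the members (0.40) and of the ERK-responsive genes (0.46) lie to the right of those of the other lists, which run from -0.14 to 0.10.

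The 6 libraries held 17679817 to 21568228 reads each. Over all genes 2413 were called, 54.0% of them higher, or 2270 with 65.0% higher under median-of-ratios scaling, and the median of all genes moved by less than 0.1 on the log2 scale. Of 14 proximal tubule markers, 6 had a mean RPKM over 1, and the sum of the list, mostly Krt8 and Krt18, was 874 to 898 with BSA and 731 to 750 with PA. The segment-defining transporters and enzymes Slc34a1, Slc5a2, Slc5a12, Ggt1 and Anpep were under the minimum mean RPKM of 0.5. Krt8 (log2 fold change -0.26, adjusted p = 0.0028, limma) and Krt18 (-0.32, adjusted p = 1.0e-03) were lower with PA, and Podxl, of the list for other nephron segments, was higher (0.20, adjusted p = 0.0157). Of other cell types, 1 of 8 fibroblast markers exceeded 1 RPKM (list sum 2.44 to 2.84 with BSA and 1.49 to 2.14 with PA), as did 1 of 8 endothelial markers (4.24 to 4.58 and 4.66 to 5.33; Emcn and Tie1 at 0), 3 of 9 immune markers (11.3 to 14.9 and 12.2 to 15.1; Lyz2 at 0) and 2 of 14 markers of other nephron segments (21.9 to 22.4 and 23.2 to 24.2; Umod, Foxi1 and Atp6v1g3 at 0). In these other lists, those over 1 RPKM were Col1a2 (fibroblast), Flt1 (endothelial), Cd14, Cd68 and Csf1r (immune), and Podxl and Synpo (other segments). Ptprc, Itgam, Adgre1 and Cd3e of the immune list and Pecam1 and Cdh5 of the endothelial list averaged under 0.5. In bulk RNA, fewer cells of a type and less RNA per cell cannot be told apart, and the part of these marker differences in the results was not tested.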

How the data were processed

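The authors sequenced mRNA from 6 PTEC libraries, made base calls with bcl2fastq, mapped reads to mm10 with TopHat2 2.1.1 (submitters' processing notes), and deposited RPKM values per gene and library. The read counter, annotation and strand setting were not given in the sources used here. Columns named by an initial and a number were matched to the labels. The 4 columns of the authors' own comparison, which hold fold changes and p-values, were not used.

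The 11671 of 24421 genes whose RPKM averaged 0.5 or more were tested with limma 3.58.1 (R 4.3.3; lmFit, eBayes with a variance trend, two-sided) on log2(RPKM + 0.1) in a model of condition alone. Fold changes on this scale understate changes of low genes. RPKM steps gave whole reads for 100% of genes within 1e-06, which were used for read numbers and for limma voom. The fit was run on simulated data with independent noise for each gene and no GC trend. It called 75 of 100 genes changed by 0.5 on the log2 scale and 91 of 100 changed by 1. Of 11471 unchanged genes, 12 were called. Changes smaller than 0.5 were not simulated.

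The members and lists were chosen with earlier results of these data known. From each list up to 3 called genes with the largest absolute change, or up to 2 with the highest RPKM where none was called, are named, and up to 2 markers per list by RPKM. The alternatives changed the constant, filter, variance trend, scaling, GC trend, replicate block or tool, or left out 1 library. Positions and promoters are from RefSeq, lengths and overlaps from GENCODE vM21.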

Additional observations from a re-analysis of the deposited data

How the results depend on the processing

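Over 17 alternatives, 8 of the 10 members kept their direction and their side of the threshold in all of them, and 0 genes named by rule changed direction while called. Members called higher numbered 8 with the replicate block or with a minimum mean RPKM of 1, and 6 to 8 when 1 library was left out, while those lower stayed at 0. The 2 members that changed side were Dusp5 and Dusp16, and 9 of the 24 other named genes that were called lost the call somewhere. All genes called ranged from 1210 (without PA replicate 2) to 3007 (without BSA replicate 3) when 1 library was left out, against 2413, with 67.7% and 45.4% of them higher, and were 1379 without BSA replicate 2 and 1325 without PA replicate 3. The cause was not tested.

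The labels do not say whether same-numbered libraries were prepared together. The correlations of their deviations from the group means were 0.035, -0.036 and 0.094, and only replicate 3 correlated best with its own number. With 3 libraries per group, these values cannot settle whether the libraries were paired. With the replicate block Dusp5 had an adjusted p of 0.0420 (0.0397 with the GC trend also removed), and 2575 genes were called, against 2413 without it. Deviations of BSA libraries followed gene GC content (r = 0.15, 0.07 and -0.20 across genes, which are not independent replicates), and removing this trend changed no member's call. Depth limits mainly Spry4, with 76 to 217 reads per library.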

Other observations

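A feature of the mRNAs that was looked at after the values were seen is the AUUUA pentamer of AU-rich elements, which mark short-lived transcripts. All 10 members carried at least 1 copy in the annotated 3′ UTR, against 66.4% of 10501 tested genes with an annotated 3′ UTR. A longer 3′ UTR can hold more copies, and its length was 690 (Dusp1) to 4330 bases (Spred1) in the members, against a median of 978 over these genes. The median density was 2.04 copies per kilobase over the members and 1.22 over these genes, from 0.84 in Dusp6 to 5.80 in Dusp1. The longer form UAUUUAU was present in 5 of 10 members and in 27.9% of tested genes. Dusp4, with a log2 fold change of 1.18, had 1.80 copies per kilobase and Spred1, which was not called, had 2.77. A relation between density and change was not tested. These are counts of letters and were not tested.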
